A study of Mus musculus with 9 samples.

Results

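Mixed arterial-venous endothelial cells (avEC) are the brain endothelial cells (ECs) that the deposited table of cells gives the cell type EC and the subtype AV. They numbered 1006 among 72543 cells in all, 20403 ECs and 18522 ECs with a subtype. The other 5 subtypes were 2 arterial classes (aEC1, 2645 cells, and aEC2, 2832 cells), capillary ECs (capEC, 4012 cells), venous-capillary ECs (vcapEC, 5774 cells) and venous ECs (vEC, 2253 cells). The series asked how ageing, and exenatide given to aged mice, change the transcriptomes of brain vascular cells along the vascular tree. Brains of male C57BL/6J mice, per the study's methods without the cerebellum, were dissociated, cleared of myelin and profiled by droplet single-cell RNA sequencing from the 3′ end of transcripts, with 3 libraries (replicates 1, 2 and 4) in each of 3 groups. Young adult mice were 2 to 3 months old and aged mice 18 to 20 months old, and neither received the drug. Exenatide-treated aged mice were of the same age as aged mice and received exenatide, an agonist of the glucagon-like peptide 1 receptor, by intraperitoneal injection at 5 nmol/kg/day for 4 to 5 weeks from the age of 17 to 18 months. The labels give a number of 3 mice with every sample and do not say whether they were pooled in 1 library.

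The young adult libraries held 34, 126 and 133 avEC, the aged libraries 13, 142 and 74, and the exenatide-treated aged libraries 165, 132 and 187, in the order of replicates 1, 2 and 4. Summed over avEC, these gave 64346, 189251 and 277543 unique molecular identifiers (UMIs) in young adult, 31840, 269903 and 159471 in aged, and 332397, 204727 and 415539 in exenatide-treated aged libraries. Aged replicate 1 stood apart with 13 avEC, so that 1 UMI there was worth 31.4 CPM (UMIs per 1000000 UMIs summed over the avEC of a library) and a gene with 0 UMIs could lie at up to 94.2 CPM (the limit of 3 counts, for counting error only). The replicate numbers coincide with the batches A, B and C of the table of cells, and the median mitochondrial share of avEC followed them, at 1.96 to 2.37% in the 3 libraries of batch B and 6.99 to 9.83% in those of batch C. Per cell, avEC had a median of 1535 UMIs and 871 genes, against 1277 UMIs in vEC, 1465 in aEC1 and 1586.5 in aEC2. Of 70317 distinct barcodes, 2209 occurred in more than 1 library and 0 in more than 1 library of a batch, and no barcode was shared between the avEC of different libraries.

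Brain arteries, capillaries and veins are lined by ECs whose gene expression changes gradually along the vessel tree, a pattern called zonation. Arterial ECs are marked by Notch and ephrin-B2 signalling genes and by matrix genes of the vessel wall, capillary ECs by transporters of the blood-brain barrier, and venous ECs by the transcription factor Nr2f2 and by receptors through which leukocytes leave the blood. Vcam1, a ligand for leukocyte integrins, and Vwf, the haemostatic protein stored in Weibel-Palade bodies, are known from large vessels of both kinds, and Slc38a5, an amino acid transporter, from the venous side.

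Of these 3 genes, the markers of avEC, Vcam1 and Vwf were at their highest in avEC among the 6 subtypes, whereas Slc38a5 was shared with vcapEC. The subtypes were assigned from the expression of these same cells, so every difference in level between avEC and another subtype here is a description and carries no test; differences in the effect of age or exenatide, given last, are tested across libraries. Vcam1 (chr3:116109949-116129688, minus strand, mm10; GENCODE M21) lay at 668, 1538 and 2111 CPM in the young adult, at 911, 1274.5 and 790 CPM in the aged and at 1233.5, 1734 and 1292 CPM in the exenatide-treated aged libraries. The lowest of these 9 values was above the highest value of any other subtype, 126 CPM in an aEC2 library. The mean over libraries was 1284 ± 463 CPM in avEC (SD, n = 9), 87.4 ± 25.9 in aEC2, 39.0 ± 17.7 in vEC, 38.2 ± 18.0 in vcapEC, 7.85 ± 5.92 in aEC1 and 5.01 ± 3.50 in capEC. Vwf (chr6:125546774-125686679, plus strand) lay at 606, 618 and 443 CPM in young adult, 471, 760 and 433 CPM in aged and 584, 586 and 763 CPM in exenatide-treated aged libraries. Again no avEC value overlapped another subtype, the highest of which was 243 CPM in an aEC2 library.

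Slc38a5 (chrX:8271133-8280179, plus strand) set avEC apart from the arterial classes but not from the venous-capillary class. It lay at 342, 275 and 382 CPM in young adult, 408, 330 and 163 CPM in aged and 184, 195 and 200 CPM in exenatide-treated aged libraries, with a mean of 275 ± 93.3 CPM. The mean in vcapEC was 269 ± 73.9 CPM, in vEC 102 ± 22.4 CPM and in aEC2 15.3 ± 11.6 CPM, so that avEC and vcapEC did not differ beyond their spread. Slc38a5 was higher in avEC in 4 and in vcapEC in 5 of 9 libraries, and without aged replicate 1, where 408 CPM rest on 13 UMIs, the means were 259 CPM in avEC and 274 CPM in vcapEC. A Slc38a5 UMI was held by 9.24% of avEC and 12.6% of vcapEC thinned to 500 UMIs per cell, and by 0.174% of microglia. After each cell was thinned to 500 UMIs, 31.2% of avEC held a Vcam1 UMI, against 3.64% of aEC2, the next highest, 1.91% of vEC and 1.29% of microglia, which served as a background type (median depth 1296 UMIs). Without thinning, the shares were 49.3, 10.2, 4.75 and 3.84%.

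**Figure D1:**
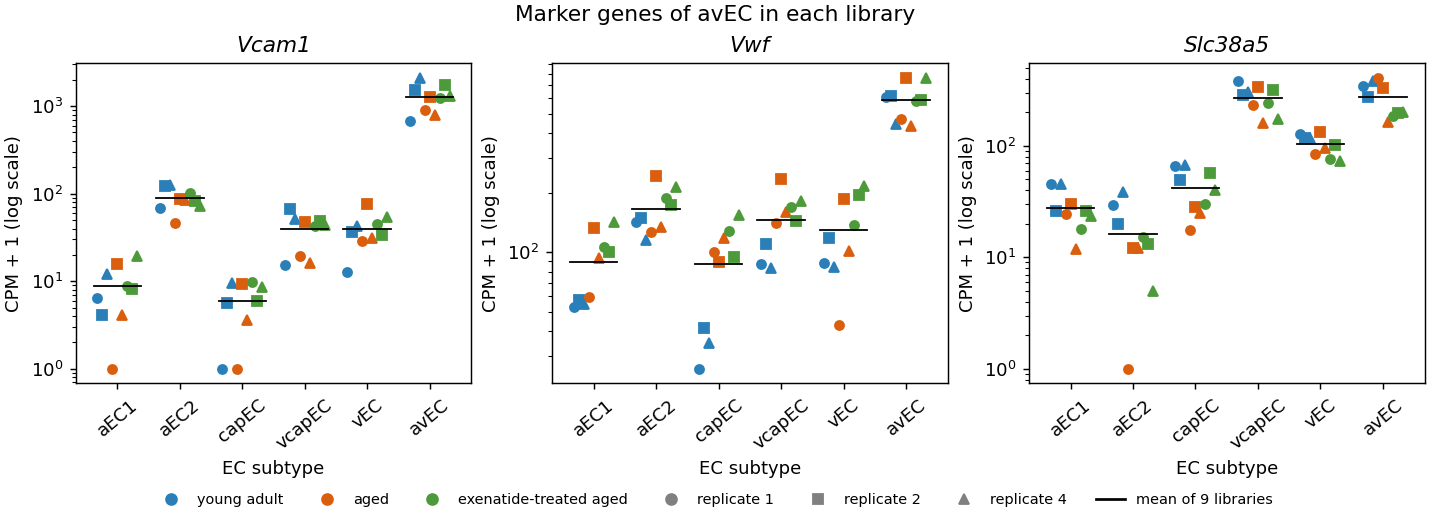
Level of the 3 avEC markers in each of 9 libraries and 6 EC subtypes, in CPM plus 1 on a log scale; colours give the group, shapes the replicate number and bars the mean of 9 libraries. Vcam1 and Vwf in avEC lie above every value of the other subtypes, whereas Slc38a5 in avEC overlaps vcapEC.

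The genes that stood highest in avEC relative to the mean of the other 5 subtypes were led by Vcam1 and included genes of leukocyte adhesion, cytokine response and veins. Folds between subtypes are the mean over 9 libraries of the log ratio of CPM plus 1. By this measure, among genes of at least 50 CPM, the 20 leading genes included Vcam1, Ptgs2, Ifi27l2a, Il1r1, Wnt5a, Ch25h, Vwf, Cxcl1, Icam1, Myof, Nrp2, Slc38a5, Ier3, Flrt2, Tgm2, Cd9, Gm12216, Nr2f2 and Apod, from 34.9-fold for Vcam1 to 2.37-fold for Apod. They were chosen among 124 genes that were higher in all 9 libraries, of 3111 at that level (3.99%).

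Icam1, like Vcam1 a ligand of leukocyte integrins, had 362 ± 208 CPM in avEC, 238 ± 111 in vEC, 70.4 ± 41.9 in vcapEC and 36.1 ± 17.5 or less in the other 3 subtypes. Its avEC values were 93.2, 507 and 573 CPM in young adult, 94.2, 578 and 144 CPM in aged and 289, 537 and 443 CPM in exenatide-treated aged libraries. The lowest came from replicates 1 of young adult and aged mice, the libraries with the fewest avEC. An Icam1 UMI was held by 12.6% of avEC and 7.63% of vEC thinned to 500 UMIs, by 0.643% of aEC1 and by 15.9% of microglia, more than in avEC, so that microglia do not serve as a background type for this gene. Cxcl1, a neutrophil chemokine, had 108 ± 70.1 CPM in avEC and 33.8 ± 18.0 CPM in vEC, the next highest. Il1r1, the interleukin-1 receptor, had 81.3 ± 32.5 CPM in avEC, 30.4 ± 9.21 in vEC and 3.52 ± 2.36 in aEC1. Ptgs2, the inducible cyclooxygenase, had 53.8 ± 33.2 CPM in avEC and at most 6.94 ± 6.75 CPM in another subtype. Ch25h, a cholesterol hydroxylase, had 60.9 ± 43.6 CPM in avEC and at most 13.4 ± 8.79 CPM elsewhere. Ier3, an early response gene, had 1351 ± 679 CPM in avEC and 680 ± 351 CPM in vEC. Ifi27l2a, an interferon-inducible gene of a multigene family whose reads may not be fully separable, had 251 ± 187 CPM in avEC and 57.1 ± 18.2 CPM in aEC2.

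The promoters of Cxcl1, Icam1 and Ier3 are shown because, among the 20 genes, their RefSeq promoter windows (250 bases before to 50 after the gene start, GRCm38.p6) held the letters GGAANTTCC, a palindrome that NF-kappaB dimers are known to bind. The motif was chosen after these sequences had been read. It was searched on both strands, and 305 of 32851 promoters of that length (0.928%) held it, as did 3 of the 14 of these 20 genes that matched the table. A match is a description of the letters and not a site of binding. The match stands in capitals in 59 bases of the plus strand, starting 70 (Cxcl1), 153 (Icam1) and 139 (Ier3) bases before the RefSeq gene start, which is not the GENCODE M21 start.
Cxcl1, chr5:90891150-90891208: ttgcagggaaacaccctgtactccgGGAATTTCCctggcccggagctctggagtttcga
Icam1, chr9:21015762-21015820: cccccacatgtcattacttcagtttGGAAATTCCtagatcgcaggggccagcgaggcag
Ier3, chr17:35821549-35821607: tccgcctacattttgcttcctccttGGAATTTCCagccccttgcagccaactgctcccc

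Over gene lists, avEC were above the mean of the other 5 subtypes mainly in venous genes. Among all 8385 genes of at least 10 CPM, 155 were higher in avEC in all 9 libraries (1.85%) and 178 were lower (2.12%), with a median fold of 0.860. Of 13 venous genes at that level, 8 were higher in all 9 libraries and 0 lower, with a median fold of 3.64 (among them Nr2f2, Slc38a5, Nrp2, Icam1, Il1r1, Ctsc and Ch25h). Nr2f2, the transcription factor of venous identity, had 87.3 ± 37.6 CPM in avEC and 89.6 ± 25.9 CPM in vEC, against 8.76 ± 5.72 CPM in aEC2. Ackr1, the chemokine receptor of postcapillary venules, averaged 63.4 ± 96.0 CPM in avEC and 2.02 ± 3.57 CPM in vEC. Its spread was wide, with 288 CPM in young adult and 152 CPM in exenatide-treated aged replicate 4, and 0 CPM in exenatide-treated aged replicate 2. Lrg1, a glycoprotein of venules, had 68.5 ± 55.8 CPM in avEC and 4.43 ± 4.60 CPM in vEC. The selectins of venules were nearly undetected, at 3.34 ± 8.76 CPM for Selp and 1.36 ± 2.77 CPM for Sele in avEC.

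Part of the arterial list was lower in avEC than in the mean of the other 5 subtypes, and the direction depended on the subtype compared. The median fold of the list was 0.327 against aEC2, 0.812 against aEC1 and 1.975 against vEC. Against the mean of the other 5 subtypes it was 0.771, beside 0.860 over all genes. Of 19 arterial genes of at least 10 CPM, 0 were higher and 6 lower than that mean in all 9 libraries. The 6 were the ephrin ligand Efnb2, the Notch ligand Dll4, the Notch target Hey1, the guidance receptor Unc5b, the phosphatase Alpl and the secreted protein Gkn3. Gkn3 averaged 46.0 ± 48.0 CPM in avEC, 1658 ± 421 CPM in aEC2 and 80.2 ± 29.8 CPM in aEC1. As means over all avEC, genes of the arterial wall lay between aEC2 and vEC instead, but their levels differed among avEC of different clusters. Mgp, the matrix Gla protein, had 543 ± 526 CPM in avEC, 1218 ± 523 in aEC2, 109 ± 64.0 in aEC1 and 54.2 ± 43.6 in vEC. Fbln5, an elastic fibre protein, had 54.7 ± 54.8 CPM in avEC, 100 ± 47.3 in aEC2 and 1.27 ± 1.36 in aEC1. Both were highest in aged replicate 1, with 1853 CPM of Mgp and 188 CPM of Fbln5, where 1 UMI was worth 31.4 CPM. Eln, elastin, had 59.9 ± 30.8 CPM in avEC and 104 ± 32.5 CPM in aEC2. By deposited cluster, described below, Mgp averaged 1848 CPM in avEC of clusters 17 and 23 and 272 CPM in cluster 13. It averaged 91.0 CPM in cluster 27 and 78.2 CPM in clusters 0, 2 and 4. In the same order Fbln5 averaged 158, 55.7, 0.971 and 0 CPM, and Eln 160.5, 19.7, 61.4 and 19.1 CPM. The means of cluster 13 cover 3 libraries, among which Fbln5 ranged from 0 to 167 CPM. With cells pooled over libraries, Fbln5 was at 11.7 CPM in cluster 13 and 257 CPM in clusters 17 and 23.

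Part of the capillary list was lower in avEC than in the mean of the other 5 subtypes, whereas against aEC2 its genes went both ways. Of 16 capillary genes, 8 were lower and 0 higher than the other 5 subtypes in all 9 libraries, with a median fold of 0.798, near the 0.860 of all genes. Against aEC2 alone, 5 were higher (Tfrc, Slc16a1, Slc7a5, Car4 and Itm2a) and 5 lower in all 9 libraries, with a median fold of 1.20, and against aEC1 1 was higher (Car4) and 6 lower. Mfsd2a, the lipid transporter that limits transcytosis at the barrier, had 92.1 ± 24.5 CPM in avEC, the lowest of the 6 subtypes, against 161 ± 47.3 CPM in aEC2, the next lowest. Cxcl12, a chemokine of arterial and capillary ECs, had 1194 ± 321 CPM in avEC and at least 2033 ± 408 CPM in the others. Of 7 genes of caveolae and transcytosis, 4 were higher than the other 5 subtypes in all 9 libraries (Cav1, Cavin1, Cavin3 and Ehd2) and 1 lower (Mfsd2a). Against aEC2 alone, 0 were higher and 3 lower (Cavin2, Cavin3 and Mfsd2a), with a median fold of 0.845. Against vEC, 2 were higher (Cav1 and Ehd2) and 1 lower (Mfsd2a). Cav1, the structural protein of caveolae, had 388 ± 111 CPM in avEC and at most 303 ± 82.4 CPM elsewhere.

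Other lists showed smaller sets of genes on the same scale. Of 20 genes of NF-kappaB and cytokine signalling, 5 were higher (Nfkbia, Relb, Il6ra, Il1r1 and Ier3) and 0 lower, with a median fold of 1.69. Nfkbia, the inhibitor that NF-kappaB itself induces, had 2350.2 ± 387 CPM in avEC and 1548 ± 145 CPM in vEC. Of 12 leukocyte adhesion genes, 3 were higher (Vcam1, Icam1 and Cxcl1), and of 10 haemostasis genes 2 were higher (Vwf and Thbd, which encodes thrombomodulin). Of 22 interferon response genes, 1 was higher (Ifitm3) and 3 lower (Isg15, Rsad2 and Irf7), and of 9 Notch genes 2 were lower (Dll4 and Hey1). Pan-endothelial genes put avEC among ECs, with Pecam1 at 478 ± 89.7 CPM against 497 CPM in the mean of the other 5, and Cdh5 at 368 ± 83.3 against 346 CPM. Of 12 such genes, 4 were lower in avEC in all 9 libraries (Cldn5, Flt1, Emcn and Ly6c1).

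The 10 genes that stood lowest in avEC by the same rule were Gkn3, Cdkn2b, Stra6, Tmem100, Unc5b, Cdc42ep3, Slc1a1, Spaar, Mcc and Spry1. Of 3101 genes at that level in the other subtypes, 139 (4.48%) were lower in all 9 libraries. Cdkn2b, a cell cycle inhibitor, had 17.6 ± 9.58 CPM in avEC and at least 46.0 ± 11.04 CPM in every other subtype. Of the 10, 6 had 0 UMIs in aged replicate 1, where up to 94.2 CPM could go undetected.

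**Figure D2:**
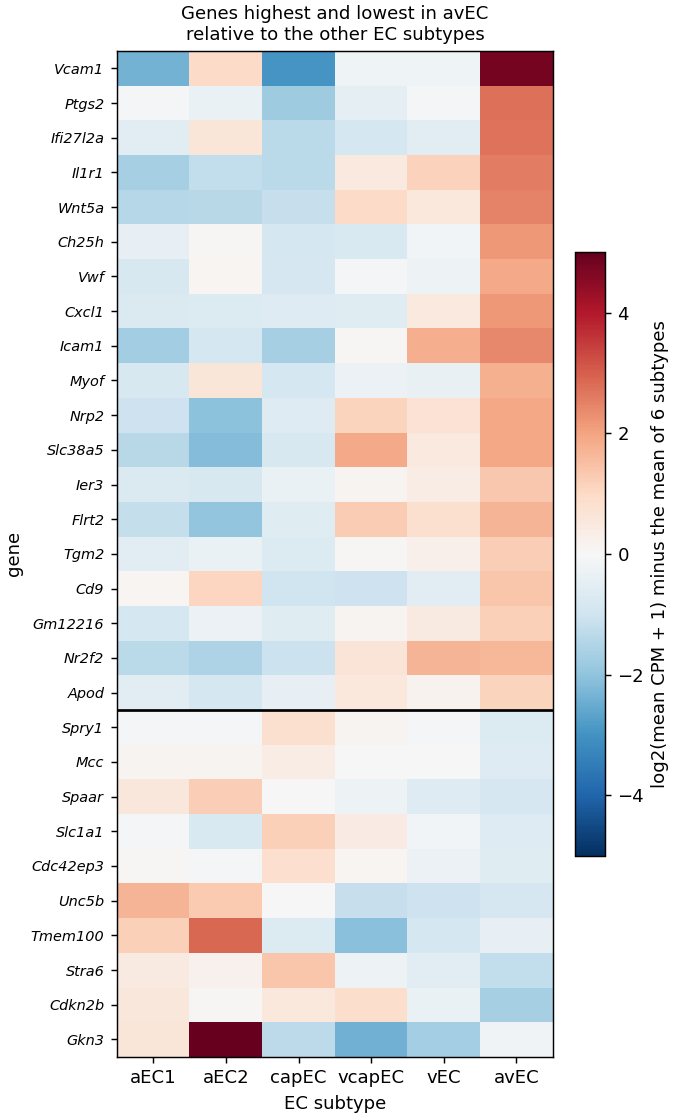
Genes named as highest (above the line) and lowest (below it) in avEC, as log2 of mean CPM plus 1 minus the mean of the 6 subtypes; columns are EC subtypes. Nr2f2 is shared mainly with vEC and Slc38a5 with vcapEC, and Cd9 with aEC2, whereas Vcam1 and Ptgs2 stand out in avEC alone.

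Of the other 5 subtypes, vEC had the fewest genes that differed from avEC. Genes of at least 50 CPM in either subtype were counted when they were at least 2-fold higher, or lower, in all 9 libraries. Against vEC, 8 of 3303 genes (0.242%) were higher (Vcam1, Vwf, Ptgs2, Ifi27l2a, Wnt5a, Cd9, Mgp and Fbln5) and 0 were lower (0%), a total that was 5 with TMM-scaled CPM. Against aEC1, 20 of 3338 genes (0.599%) were higher and 8 (0.24%) lower. Against aEC2, 25 of 3417 genes (0.732%) were higher and 13 (0.38%) lower, a total of 38 that was 24 with means over cells. Counts against vcapEC and capEC were added after the data had been seen. Against vcapEC, 19 of 3313 genes (0.573%) were higher and 3 (0.0906%) lower, and against capEC 24 of 3299 (0.727%) were higher and 6 (0.182%) lower. Without the cells of 1 deposited cluster, described below, the total was 12 in place of 28 genes against aEC1, 13 in place of 38 against aEC2 and 13 in place of 30 against capEC, while it was 8 against vEC and 19 against vcapEC, an alternative also added after the data had been seen.

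Against vEC, the 5 largest folds upward were Vcam1 (33.3-fold), Fbln5 (16.8-fold), Mgp (12.0-fold), Ifi27l2a (11.1-fold) and Ptgs2 (8.58-fold), so that a leukocyte ligand stood beside proteins of the arterial wall. The 5 largest downward were Tsc22d2, Mcc, Golm1, Dusp6 and Ddc, at folds of 0.440 to 0.518. The arterial list was above vEC for 8 of 19 genes and below for 0, on a background of 1.28% of 8405 genes higher and 1.01% lower in all 9 libraries. Against aEC1, the 5 upward were Vcam1 (180-fold), Fbln5 (21.2-fold), Il1r1 (20.6-fold), Wnt5a (19.8-fold) and Icam1 (19.5-fold), and the 5 downward were Efnb2, Unc5b, Cdkn2b, Stra6 and Rad54b, at folds of 0.163 to 0.227. The venous list was above aEC1 for 9 of 13 genes and below for 0, where the background was 2.3% higher and 2.04% lower. The arterial list was split against aEC1, with 4 of 19 genes above (Mgp, Fbln5, Clu and Eln) and 5 below (Efnb2, Hey1, Dll4, Unc5b and Alpl), and a median fold of 0.812. Against aEC2, the 5 upward were Slc38a5 (22.9-fold), Nrp2 (21.4-fold), Wnt5a (17.8-fold), Il1r1 (17.2-fold) and Flrt2 (16.1-fold), and the 5 downward were Gkn3 (0.0157-fold), Tmem100, Bmx, Egfl8 and Sncg (0.183-fold). Of 19 arterial genes 12 were below aEC2 in all 9 libraries and 0 above, and of 13 venous genes 9 were above, on a background of 2.71% higher and 3.72% lower.

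Arterial and venous UMIs were rarely found in the same avEC when short gene lists were used. Lists of 7 genes each (arterial Bmx, Vegfc, Gkn3, Sema3g, Efnb2, Hey1 and Gja5; venous Nr2f2, Slc38a5, Ephb4, Ackr1, Il1r1, Car8 and Lcn2) were counted in cells thinned to 500 UMIs. On average over 9 libraries, 13.01 ± 4.55% of avEC held an arterial UMI and 18.3 ± 4.41% a venous UMI, and 0.747 ± 0.767% held both, where the product of the shares was 2.32%. The share of avEC with both lay at 0 to 2.26% per library. The share with both was 0.876 ± 0.718% in aEC1 and 1.90 ± 0.968% in aEC2, above that of avEC, and 0.205 to 0.376% in capEC, vcapEC and vEC, and these means lay within the range of the avEC libraries. In aEC2, 58.85 ± 4.89% of cells held an arterial and 3.45 ± 1.05% a venous UMI, and in vEC the shares were 5.14 ± 1.46% and 10.95 ± 2.54%. In microglia they were 0.653 and 0.497%, with 0.00320% for both, the level in a cell type that should lack both. Without thinning, 7.87 ± 4.12% of avEC held both kinds, against a product of 11.01%. With the longer lists of 20 arterial and 16 venous genes at 500 UMIs the share was 12.98 ± 4.28%, against a product of 15.1%. That was the highest mean of the 6 subtypes, before 8.99 ± 2.10% in aEC2, 7.45 ± 2.51% in vEC and 4.26 to 7.31% in the other 3, and there the venous list also marked 50.9% of microglia.

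The deposited clusters divide ECs more finely than the subtypes, and some of them held avEC of mainly a venous or an arterial kind, whereas most avEC lay in clusters without such a split. The clusters were joined into 4 sets after their values had been seen, and they were made from the same genes, so that their levels are descriptions. Cluster 27 held 251 of 1006 avEC (24.95%), clusters 17 and 23 held 147, cluster 13 held 107, and clusters 0, 2 and 4 held 499. Clusters 0, 2, 4, 13 and 17 each drew 92.7 to 97.9% of their ECs from a single batch, whereas cluster 27 drew 13.9, 50.55 and 35.6% from batches A, B and C. Of the 548 ECs with a subtype in cluster 27, 45.8% were avEC, 33.6% vcapEC and 19.7% vEC. The avEC of cluster 27 were also deeper, with a median of 2999 UMIs per cell. The median was 2030 in cluster 13, 1290 in clusters 17 and 23 and 1102 in clusters 0, 2 and 4. The part of depth in these levels, and in the unthinned shares of cells below, was not tested.

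Most avEC of cluster 27 held venous UMIs. In the 7 libraries that held 10 or more of them, Vcam1 averaged 2388 ± 614 CPM, Icam1 861 ± 267, Slc38a5 466 ± 82.3, Lrg1 192 ± 94.1, Nr2f2 178 ± 65.3 and Ackr1 167 ± 213 CPM, while Cytl1 was at 0 CPM and Bmx at 7.09 ± 8.15 CPM. The ECs of other subtypes in the same cluster had like levels of Slc38a5 (456 ± 80.7 CPM) and Nr2f2 (162 ± 33.7 CPM), but 285 ± 132 CPM of Vcam1. Most avEC of clusters 17 and 23 held arterial UMIs, as did avEC of other clusters given below. Over 4 libraries, Mgp averaged 1848 ± 1109 CPM, Cytl1, a secreted cytokine-like protein of arteries, 315 ± 173, Gkn3 203 ± 55.4, Hey1 175 ± 63.9, Fbln5 158 ± 98.4 and Bmx 158 ± 82.5 CPM, and Slc38a5 was at 2.91 ± 5.81 CPM. Other subtypes in clusters 17 and 23 had 1552 ± 741 CPM of Mgp but 1672 ± 463 CPM of Gkn3. Arterial UMIs were found in 63.95% and venous UMIs in 10.9% of these avEC without thinning, against 10.4 and 89.2% in cluster 27. In the other subtypes of the same clusters the shares were 88.9 and 8.71% in clusters 17 and 23 and 14.5 and 83.5% in cluster 27. In cluster 13 the shares were 53.3 and 36.4%, with 12.1% of avEC holding both, the highest of the 4 sets, and in the other subtypes there they were 59.5 and 23.8%, with 12.7% holding both. In clusters 0, 2 and 4, which held 499 avEC, they were 15.8 and 27.3%, with 4.81% holding both, against 16.9, 24.4 and 3.94% in the other subtypes there, so that most of these cells had neither kind of UMI and avEC were near the other subtypes of the same clusters. Of single genes, arterial Sema3g averaged 190 ± 130 CPM over 3 libraries in cluster 13 and 186 ± 80.4 CPM in clusters 17 and 23. In cluster 13 it ranged from 80.0 to 334 CPM. With cells pooled over libraries, Sema3g was at 117 CPM in cluster 13 and 188 CPM in clusters 17 and 23. Venous Ephb4 averaged 93.5 ± 20.7 CPM in cluster 13 and 75.7 ± 39.3 CPM in cluster 27.

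In all 4 sets Vcam1 was higher in avEC than in the other subtypes of the same clusters. Beside the 2388 against 285 CPM of cluster 27, the means were 573 ± 281 against 131 ± 87.4 CPM in clusters 17 and 23, 376 ± 203 against 12.8 ± 14.1 CPM in cluster 13 and 809 ± 361 against 15.5 ± 6.05 CPM in clusters 0, 2 and 4. Vwf was at 953 ± 229 against 416 ± 103 CPM in cluster 27 and at 495 ± 199 against 101 ± 32.0 CPM in clusters 0, 2 and 4, but at 207 ± 109 against 172 ± 69.8 CPM in clusters 17 and 23. Ifi27l2a ran opposite to the venous genes, with 446 ± 296 CPM in clusters 17 and 23 and 59.8 ± 47.6 CPM in cluster 27.

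**Figure D3:**
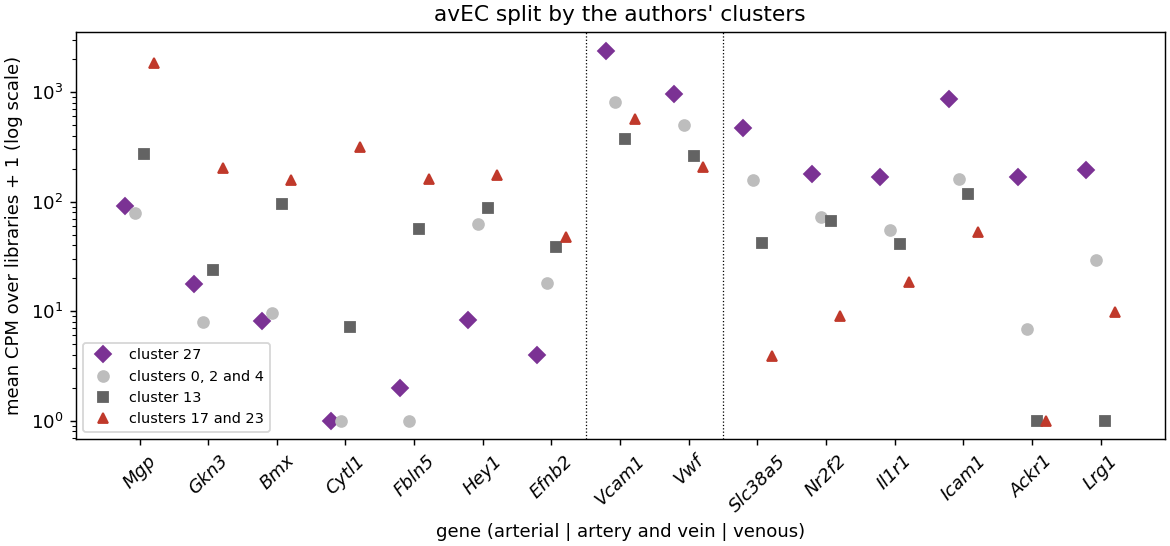
Mean level of 7 arterial genes, Vcam1 and Vwf, and 6 venous genes in avEC of 4 sets of deposited clusters, in CPM plus 1 on a log scale; each point averages those libraries that had 10 or more of the cells. The 7 arterial genes plotted are highest in clusters 17 and 23 and the 6 venous genes in cluster 27, and Vcam1 is above 300 CPM in all 4 sets.

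Markers of other cell types were low in avEC beside their own cell types. Their summed level in most lists lay within the spread of the other EC subtypes, although the median fold in several lists was below that of all genes. The summed level of 8 microglial genes was 432 ± 175 CPM in avEC and 389 ± 112 CPM in the other 5 subtypes, against 34693 CPM in microglia, with C1qa as the most abundant at 99.6 CPM. The 7 pericyte genes summed to 397 ± 298 CPM (other subtypes 559 ± 223, pericytes 27731; most abundant Rgs5 at 253 CPM), and ranged from 31.4 CPM in aged replicate 1 to 785 CPM in young adult replicate 4. Rgs5 was lower in avEC than in the mean of the other 5 subtypes in all 9 libraries (253 ± 229 against 389 ± 207 CPM). No other gene of these lists at 10 CPM or more was lower in all 9. The median fold was 0.492 over the 6 pericyte genes of at least 10 CPM, 0.400 over 2 macrophage, 0.548 over 4 erythroid, 0.573 over 2 oligodendrocyte, 0.578 over 5 astrocyte and 0.926 over 8 microglial genes, beside 0.860 over all genes. Smooth muscle genes summed to 96.7 ± 48.7 CPM against 26704 CPM in smooth muscle cells, led by Myl9, and 5 macrophage genes to 27.1 ± 21.7 CPM against 12285 CPM in macrophages, led by Lyz2. The 5 fibroblast genes summed to 6.60 ± 9.74 CPM, with Lum at 0 UMIs, and the lymphatic endothelial list to 4.26 ± 4.13 CPM over its 3 genes that matched the gene table, Pdpn as the most abundant at 3.30 CPM. The choroid plexus list summed to 1839 ± 891 CPM in avEC and 1818 ± 577 CPM in the other subtypes, nearly all of it Ttr (1745 CPM), and the erythroid list to 161 ± 142 and 233 ± 202 CPM. Astrocyte genes summed to 348 ± 217 CPM in avEC and 316 ± 145 CPM elsewhere, led by Slc1a2, and oligodendrocyte genes to 106 ± 77.9 CPM, led by Mbp with Mog at 0 UMIs. The leukocyte, neuron, ependymal and oligodendrocyte precursor lists each summed to 17.8 CPM or less in avEC. The part of such RNA in the results below was not tested.

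The share of avEC among ECs with a subtype overlapped between young adult and aged and between aged and exenatide-treated aged libraries, whereas all 3 exenatide-treated aged libraries were above all 3 young adult libraries. It was 1.65, 4.83 and 4.07% in young adult, 4.33, 8.79 and 5.18% in aged and 5.98, 6.12 and 8.04% in exenatide-treated aged libraries. The 13 cells of aged replicate 1 leave a 95% exact binomial interval of 2.33 to 7.30%, for counting error only. Group means were 3.52 ± 1.66, 6.10 ± 2.37 and 6.72 ± 1.15% (SD, n = 3 each). Aged minus young adult was 2.59 percentage points (two-sided exact permutation p = 0.2, where 0.1 is the smallest that 3 against 3 libraries allow), and all 3 aged libraries were above the young adult library of the same batch. It was 1.24 points without aged replicate 2 and 1.65 points without young adult replicate 1. Exenatide-treated aged minus young adult, a pair added after the shares had been seen in which age and drug cannot be told apart, was 3.20 points (exact permutation p = 0.1, the smallest possible) and 2.27 to 3.86 points with each library left out. Exenatide-treated aged minus aged was 0.614 points (exact permutation p = 0.6) and was 1.96 points without aged replicate 2 and 0.153 points without aged replicate 4, and turned to -0.270 points without aged replicate 1, to -0.0478 points without exenatide-treated aged replicate 4 and to -0.162 points with cells pooled over libraries. The share of avEC that lay in cluster 27 was 11.8, 19.8 and 42.1% in young adult, 7.69, 31.7 and 23.0% in aged and 19.4, 18.2 and 25.1% in exenatide-treated aged libraries, with no separation of the groups (exact permutation p = 0.8 and 1). A change in the number of these cells and a change in their recovery from tissue cannot be told apart.

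**Figure D4:**
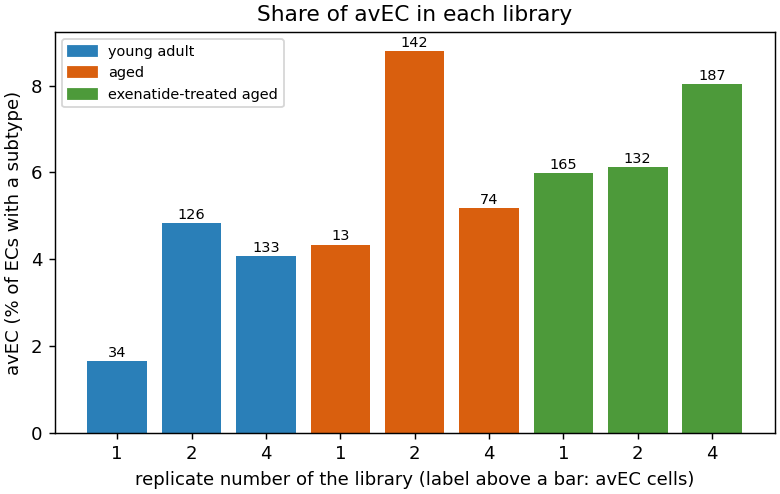
Share of avEC among ECs with a subtype in each library, in percent, with the number of avEC above each bar and colours for the group. Young adult libraries lie at 1.65 to 4.83%, aged at 4.33 to 8.79% and exenatide-treated aged at 5.98 to 8.04%, so that aged libraries overlap both other groups, which do not overlap each other.

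Within avEC, no gene differed between aged and young adult mice past the thresholds. UMI counts were summed per library and 3749 genes were tested by edgeR's quasi-likelihood test, where a differentially expressed gene (DEG) needed a false discovery rate (FDR) adjusted p under 0.05 and a natural log fold change (lnFC) over 0.1 in size. There were 0 DEGs (0%), also with batch as a term and with DESeq2. At an unadjusted p under 0.05 there were 60 genes (1.6%), 36 higher (0.96%) and 24 lower (0.64%) in aged avEC, 25 by DESeq2 and 218 with the batch term, where the smallest adjusted p was 0.188 against 0.999 without it. Lower in the fit were Pomc, Slc7a5, Rflnb and Ucp2, and higher were Tcp1, Ankrd12, Jag2, H2-Q6 and Plscr2, all among the 5 of smallest unadjusted p each way, none of which passed.

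The values by library are given for some of these genes. Since they were chosen by their p in this contrast, groups that do not overlap restate the choice. Among all 3749 genes, the 3 aged values were above the 3 young adult values for 120 (3.2%) and below them for 119 (3.17%). Jag2, a Notch ligand of arterial ECs, was at 46.6, 68.7 and 75.7 CPM in young adult, 188, 148 and 150.5 CPM in aged and 156, 92.8 and 111 CPM in exenatide-treated aged libraries (aged against young adult lnFC 0.83 ± 0.27 SE, edgeR adjusted p = 0.999). All 3 aged values were above all 3 young adult values. Tcp1, a chaperonin subunit, was at 31.1, 37.0 and 18.0 CPM in young adult and 157, 70.4 and 94.1 CPM in aged libraries (lnFC 1.20 ± 0.36, adjusted p = 0.999). Slc7a5, the large neutral amino acid transporter of the barrier, was at 420, 391 and 656 CPM in young adult and 188, 326 and 232 CPM in aged libraries (lnFC -0.64 ± 0.23, adjusted p = 0.999). These counts are low in aged replicate 1, where 1 UMI was worth 31.4 CPM. H2-Q6 is a class I gene with near-identical neighbours, so that its reads may be shared among them.

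The subtypes rest on the expression of zonation genes, the 3 markers among them, so the level of such a gene within avEC depends on which cells were called avEC, and its values by age are a description. Vcam1 had a lnFC of -0.38 ± 0.24 SE, Vwf of 0.02 ± 0.22 and Slc38a5 of -0.16 ± 0.24 in aged against young adult avEC, and their values overlapped between groups. Over all 3749 genes, 0.96% were higher and 0.64% lower at an unadjusted edgeR p under 0.05. Of 10 venous genes tested, 0 were under that limit, with a median lnFC of -0.18. Of 14 arterial genes 2 were, both upward, with a median of 0.162. These 2 were Stmn2, a microtubule regulator (140, 159 and 54.0 CPM in young adult, 565, 259 and 182 CPM in aged libraries), and Alpl. Of 16 capillary genes, 2 were below that limit, both downward, with a median of -0.213, namely Slc7a5 and Car4, a carbonic anhydrase of capillaries. Jag2 (Notch), H2-Q6 (class I antigen presentation), Podxl (leukocyte adhesion), Smad7 (TGF-beta), Timp3 (extracellular matrix) and Btg2 (immediate early genes) were the others below it among the lists, all upward. Of 19 immediate early genes 16 had a positive and 3 a negative lnFC, with a median of 0.232, where all 3749 genes had a median of -0.00155 with 1870 positive. The 10 leukocyte adhesion genes had a median of -0.2, the 13 NF-kappaB and cytokine genes of 0.238 and the 21 interferon genes of -0.119. The 5 metallothionein and glucocorticoid response genes tested all had a negative lnFC, with a median of -0.306. None of these medians was tested.

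Exenatide-treated aged against aged avEC likewise gave 0 DEGs of 3749 genes (0%), with the batch term and with DESeq2 as well. At an unadjusted p under 0.05 there were 16 genes (0.427%), 8 higher and 8 lower (0.213% each), 4 by DESeq2 and 93 with the batch term, where the smallest adjusted p was 0.9999. Stra6, a retinol transport receptor, led upward with 51.1, 73.3 and 69.8 CPM in exenatide-treated aged against 0, 14.8 and 25.1 CPM in aged and 31.1, 21.1 and 25.2 CPM in young adult libraries (lnFC 1.32 ± 0.44, edgeR adjusted p = 1). All 3 exenatide-treated values were above the other 6, although the 0 CPM came from the library with 13 avEC. Stra6 was chosen by its p in this contrast, so its separation from the aged libraries restates the choice. Against the aged libraries alone, 60 of 3749 genes (1.6%) were above and 73 (1.95%) below in all 3 exenatide-treated libraries. No such share was counted against all 6 libraries. Fam107a, Ahcyl1, Map3k20 and Amotl1 followed upward and Ubl7, Gbe1, Ppm1g and Pold4 downward, and none passed. Vcam1 had a lnFC of 0.38 ± 0.24, Vwf of 0.16 ± 0.21 and Slc38a5 of -0.35 ± 0.23, again as a description. Among the lists only Hba-a1, a haemoglobin gene of the erythroid list, had an unadjusted p under 0.05, at 48.1, 9.77 and 14.4 CPM in exenatide-treated aged and 62.8, 126 and 12.5 CPM in aged libraries. Of 10 leukocyte adhesion genes 9 had a positive lnFC, with a median of 0.157, and of 19 immediate early genes 14 had a negative lnFC, with a median of -0.04, where all 3749 genes had a median of 0.0101 with 1946 positive and 1803 negative. The 2 contrasts share the aged libraries, so that their opposite signs are not independent.

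Whether age acted differently on avEC than on their neighbours was tested directly, as the difference in effect between 2 subtypes of the same libraries. Against vEC, 3 of 5690 genes passed (0.0527%), namely Pam, Hbb-bs and Ccl3, and with a batch-by-subtype term 1, Pam. Pam (chr1:97795114-98095646, minus strand), the enzyme that amidates peptide hormones, fell with age in avEC relative to vEC, with a difference in lnFC of -1.19 ± 0.21 (SE; edgeR adjusted p = 0.000162, and 0.000123 with the batch term). In avEC it was at 140, 248 and 281 CPM in young adult, 0, 148 and 144 CPM in aged and 102, 103 and 108 CPM in exenatide-treated aged libraries. In vEC it was at 61.5, 125 and 120 CPM in young adult, 294, 163 and 246 CPM in aged and 127, 130 and 112 CPM in exenatide-treated aged libraries. Within each batch avEC were above vEC in young adult and below vEC in aged libraries. The difference lay between -1.61 and -1.05 with each library left out in turn, and passed in all of these but 1, without young adult replicate 4 (-1.14, adjusted p = 0.0606). Without aged replicate 1, the library with 0 Pam UMIs in avEC, it was -1.05 (adjusted p = 0.00899). Neither subtype alone passed, with lnFC -0.64 ± 0.31 in avEC and 0.78 ± 0.23 in vEC (adjusted p = 0.999 and 1).

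Ccl3, a chemokine of microglia and macrophages, had a difference of 2.23 ± 0.46 against vEC (edgeR adjusted p = 0.00322, and 0.0907 with the batch term). It was at 31.1, 58.1 and 18.0 CPM in young adult and 62.8, 122 and 37.6 CPM in aged avEC, and at 38.1, 30.5 and 45.8 CPM in young adult and 0, 15.5 and 5.02 CPM in aged vEC, the last from 0, 7 and 1 UMIs. The call was lost without young adult replicate 4 (1.69, adjusted p = 0.946) and without aged replicate 2 (2.44, adjusted p = 0.933). The summed microglial list in avEC was 404, 502 and 483 CPM in young adult and 251, 622 and 188 CPM in aged libraries. In vEC the microglial gene C1qa was at 85.0, 104 and 105 CPM in young adult and 56.0, 53.0 and 45.2 CPM in aged libraries. In avEC it was at 109, 127 and 93.7 CPM in young adult and 94.2, 144.5 and 43.9 CPM in aged libraries. The part of microglial RNA in the Ccl3 difference was not tested. Hbb-bs, a haemoglobin gene of erythroid cells with a near-identical neighbour, had a difference of 1.52 ± 0.27 (adjusted p = 0.000441), which was 0.82 ± 0.35 with the batch term (adjusted p = 0.998). A single vEC library, young adult replicate 4, stood at 408 CPM, and without that replicate the difference was 0.141 (adjusted p = 0.999). The call was also lost without aged replicate 1 (1.52, adjusted p = 0.163) and without aged replicate 2 (1.58, adjusted p = 0.995), although the difference was about as large. Without the cells of cluster 27 the call was lost for Ccl3 (1.82, adjusted p = 0.987) and Hbb-bs (1, adjusted p = 0.960) and kept for Pam (-1.5, adjusted p = 0.000108).

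**Figure D5:**
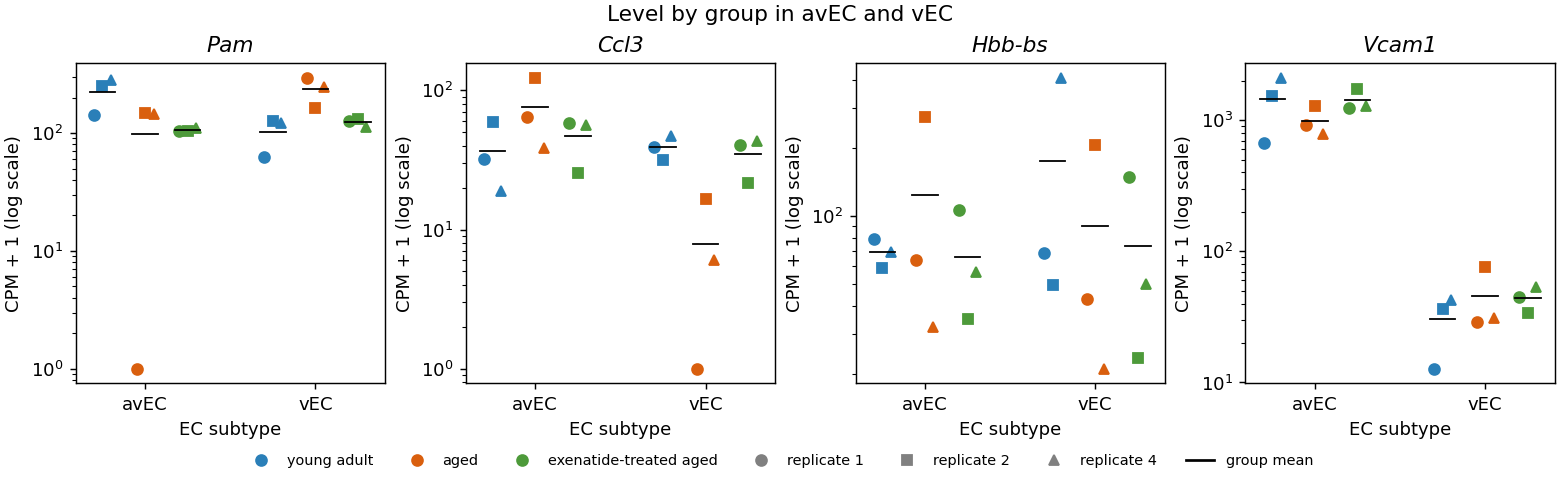
Level of Pam, Ccl3, Hbb-bs and Vcam1 by group in avEC and vEC, in CPM plus 1 on a log scale; points are libraries, shapes replicate numbers and bars group means. For Pam, young adult values are higher in avEC and aged values higher in vEC, and the single aged avEC point at the bottom is the library with 0 Pam UMIs among 31840.

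The markers are given without a test, since their level bears on whether a cell was called avEC or vEC. Vcam1 had a difference of -0.92 ± 0.24 against vEC, Vwf of -0.25 ± 0.17 and Slc38a5 of -0.14 ± 0.20. None of Ctsd, Tcp1, Ccm2, Tsta3, Polr3gl and Ints3, among the others of smallest unadjusted p, passed. Against aEC1, 0 of 5415 genes passed (0%), with 233 at an unadjusted p under 0.05 and a smallest adjusted p of 0.307. Pam was again the gene of smallest p, with -0.89 ± 0.22 (adjusted p = 0.307, and 0.0943 with the batch term). H2-Q6, Cd9, Icam1 and Hs3st1 were the next downward, Icam1 with -1.21 ± 0.36, and Tcp1, Rab28, Ccl3, D10Jhu81e and Eng upward. Against aEC2, 1 of 6598 genes passed (0.0152%), the olfactory receptor gene Olfr655, with -3.28 ± 0.70 (adjusted p = 0.0312, and 0.567 with the batch term). Its 47 UMIs in avEC came from 4 libraries, 32 of them from young adult replicate 4, without which the difference was -0.261 (adjusted p = 0.999). The call was also lost without aged replicate 1, aged replicate 4 and exenatide-treated aged replicate 2 (adjusted p = 1, 0.583 and 0.173). Csf1, Errfi1 and Foxc1 followed downward and Nob1, Ccl3, Camta2, 8430408G22Rik and Socs5 upward, and none passed.

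For exenatide-treated aged against aged mice, 0 genes passed against vEC, aEC1 or aEC2 (0% each), where 220, 211 and 238 genes had an unadjusted p under 0.05 and the smallest adjusted p was 0.113, 0.124 and 0.2. The genes of smallest p against vEC were Flvcr2, Dmac1, Ltbp4, Stra6 and Map3k20 upward and Ccl3, Pold4, C1qa, Atp6v1f and Ier3 downward. Against aEC1 they were Hspb1, Stra6, Zfp637, Dctn5 and H2-Q6 upward and Hba-a1, Socs3, Rassf1, Ier3 and Ccl3 downward, and against aEC2 Rnf152, Hspb1, Stra6, Ahcyl1 and H2-Q6 upward and Ccl4, Ccl3, Prpf6 and Mt1 downward. Vcam1 differed by 0.53 ± 0.22 against vEC, as a description. These differences use the same avEC sums, so that genes that recur among them, such as Stra6 and Ccl3, are not independent findings.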

How the data were processed

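Single-cell libraries were made with the Chromium 3′ kit, version 2. Per the labels, the submitters used Cell Ranger 3.0.0, Seurat 3.0.1 and the mm10 build. The deposited matrix held natural log values, ln(1 + 10000 × UMI/total), and the deposited table of cells held the total count, the mitochondrial fraction, cell type, subtype, cluster and batch of 72543 cells; 1 numeric column of it was not used. Doublets and filters were as the authors deposited them. Whole UMI counts were recovered for all 58404382 entries (tolerance 1e-06), and in 72543 cells they summed to the deposited total. They were summed per library and subtype. CPM are unscaled. The lnFC come from edgeR 4.0.16 (TMM, filterByExpr, robust quasi-likelihood test, Benjamini-Hochberg adjustment over all genes tested) in R 4.3.3, with DESeq2 1.42.0 as an alternative. The edgeR fits within avEC and of the difference against vEC were tried on simulated data, and DESeq2 was not. TMM factors were 0.962 to 1.04. Differences in effect had each library as a block. The labels and the study's text give different numbers of mice, and neither says how mice map to libraries, so p-values measure the spread between libraries.

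Same-numbered libraries share a batch. Deviations of avEC from their group means correlated at 0.271 to 0.535 across genes between libraries of the same number and at -0.327 to -0.0892 between different numbers, so the numbers were taken as pairs in the fit with a batch term.

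Members, gene lists and alternatives were chosen with earlier results of these data known. Named genes were the markers, the 20 highest and 10 lowest genes against the other 5 subtypes, the 5 largest each way against vEC, aEC1 and aEC2, DEGs or else the 5 of smallest p each way, and, from each list, its most abundant members and those under an unadjusted p of 0.05. A few genes that meet this rule are not reported here. Gene positions are from GENCODE M21.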

Additional observations from a re-analysis of the deposited data

Results flagged for a closer look

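There were 4 differences in effect between avEC and a neighbouring subtype that passed the test of the difference itself for aged against young adult mice. Pam differed by -1.19 (lnFC in avEC minus lnFC in vEC, edgeR adjusted p = 0.000162), Hbb-bs by 1.52 and Ccl3 by 2.23 (adjusted p = 0.000441 and 0.00322), and Olfr655 by -3.28 between avEC and aEC2 (adjusted p = 0.0312). With the batch-by-subtype term Pam alone passed (adjusted p = 0.000123, against 0.998, 0.0907 and 0.567 for the others). For exenatide-treated aged against aged mice there was no such difference. Groups of 3 libraries are too small for a test of outlying libraries.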

How the results depend on the processing

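The counts of DEGs between groups within avEC stayed at 0 under the batch term (replicate block), DESeq2 size factors, DESeq2, at least 20 cells per library, without cluster 27 and with each library left out (range 0 to 0); with no filter on low counts, 1 gene of 14240 passed for age (Gm26737, named after its value was seen). Left-out libraries moved the other counts as follows: genes against vEC, aEC1, aEC2, vcapEC and capEC from 7 to 10, 27 to 32, 38 to 49, 23 to 26 and 30 to 35; differences in effect of age from 0 to 4, 0 to 2 and 0 to 6; differences in effect of exenatide from 0 to 1, 0 to 2 and 0 to 1. For age these counts were 0, 2 and 0 without young adult replicate 4 and 1, 2 and 2 without aged replicate 2, and against aEC2 6 without young adult replicate 2 and 0 without aged replicate 1, aged replicate 4 or exenatide-treated aged replicate 2. For exenatide they were 1 against vEC and 2 against aEC1 without exenatide-treated aged replicate 4, 2 and 1 against aEC1 without young adult replicate 2 and exenatide-treated aged replicate 2, and 1 against aEC2 without aged replicate 4.

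With the replicate block the differences in effect of age numbered 1 against vEC and 0 against aEC2; without cluster 27 the number against vEC was 1. The replicate block changed no other call, and for shares an exact permutation test by sign flips within batches gave p = 0.25 for both differences from young adult and 0.75 for exenatide-treated aged minus aged, where 0.25 is the smallest possible. TMM-scaled CPM left 5 genes against vEC, means over cells 24 against aEC2, and removal of cluster 27 12 against aEC1 and 13 against aEC2 and capEC. A minimum of 100 CPM left 13 genes against vcapEC and 19 against capEC. The share of avEC with both kinds of UMI was 3.51% at 1000 UMIs, 7.87% unthinned and 12.98% with longer lists (0.558 to 0.840% with libraries left out). The share difference of exenatide-treated aged minus aged reversed to -0.162 when pooled and ranged from -0.270 to 1.96; that of aged minus young adult ranged from 1.24 to 3.47 and that of exenatide-treated aged minus young adult from 2.27 to 3.86. The causes were not tested.

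Reversed signs, none past the thresholds, were Vwf for age at -0.0111 without cluster 27 and from -0.26 to 0.128 with libraries left out (-0.112 without young adult replicate 4), Slc38a5 for age from -0.341 to 0.0514 (without aged replicate 4), Hba-a1 for exenatide from -1.7 to 0.106 (without aged replicate 2), and Slc38a5 against vEC for exenatide at 0.11 without cluster 27 and from -0.125 to 0.0689 with libraries left out (0.0507 and 0.0603 without aged replicates 1 and 2). Depth limits what 13 avEC of aged replicate 1 can show.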
